A study of Mus musculus with 18 samples.

Results

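The BAF complex is a chromatin remodeller that uses ATP to slide and evict nucleosomes, and it is assembled from a core and from subunits that are chosen among paralogs. Dividing neural progenitors carry the paralogs Actl6a (BAF53A), Phf10 (BAF45A), Dpf2 (BAF45D) and Ss18. Neurons that leave the cell cycle exchange them for Actl6b (BAF53B), Dpf1 (BAF45B), Dpf3 (BAF45C) and Ss18l1 (CREST), and the ATPase is either Smarca4 (BRG1) or Smarca2 (BRM). These 10 genes were taken by symbol from all 5 deposited tables. All 10 were found among the 27179 genes of the tables counted per gene. They were grouped as 5 progenitor and 5 neuronal subunits. In this grouping Smarca4 was placed with the progenitor and Smarca2 with the neuronal subunits, although the exchange described above does not include the ATPases.

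Sorted spinal motor neurons (MNs) of mice were sequenced in 18 samples. At e12.5 these were 6 brachial samples labelled Wildtype and 3 brachial samples of Hoxc8 MNΔ embryos, in which Olig2-Cre removed floxed Hoxc8 from MN progenitors. At p8 they were 3 brachial, 3 thoracic and 3 lumbar samples labelled Wildtype. The methods name the Mnx1-GFP transgene as the reporter of the e12 sort and tdTomato from the Ai9 allele, switched on by Cre from the Chat locus, as that of the p8 sort, with cords of several animals pooled in each such sample. Different spinal segments were dissected for the comparison of stages and for that of controls with mutants, and the study calls both brachial. The study names Hoxc8 fl/fl embryos as the controls of the mutant RNA-Seq, while the labels give Wildtype for all control samples and do not say which of the 6 were set against the mutants.

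No deposited column holds a value of a single sample. The one level in each table is a pooled mean, the average over all samples of both sides of a comparison of the read counts divided by size factors. The table of e12 against p8 (the stage table) therefore mixes both stages, the 3 regional tables hold 1 identical pooled mean over all p8 samples (the p8 tables), and the table of controls against mutants (the e12.5 table) mixes both genotypes. No SD, test or difference between regions or between genotypes can be given from such means, and the levels below are descriptions. Because the stage table includes p8 samples, a fold between it and the p8 tables is not the fold between the stages, and the brachial p8 samples enter both. A gene with a single read shows what 1 read adds to a pooled mean in each library. Such values gave 9 libraries in the stage table, 9 in the p8 tables and 6 in the e12.5 table. The methods name 3 replicates at each stage for the comparison of stages, fewer than the libraries found in the stage table. Size factors computed from the values of 1 read ran from 0.0838 to 1.71 in the stage table, where the next lowest was 0.963. They ran from 0.16 to 2.74 in the p8 tables and from 0.91 to 1.17 in the e12.5 table. One read thus added 0.0405 to the p8 pooled mean in the library with the largest size factor and 0.693 in that with the smallest.

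Defining markers of the sorted cells were checked next. In the p8 tables the pooled mean of Chat, which makes acetylcholine, was 14.1, that of the MN factor Isl1 was 2.67 and that of Mnx1 was 0.696, against 147, 313 and 2338 in the stage table. The choline transporter gene Slc5a7 had 165 at p8 and 210 in the stage table, and the MN filament gene Prph had 443 and 1739. The 10 oligodendrocyte markers made up 43.6% of the summed pooled means in the p8 tables and 23.5% in the stage table, and the 9 general neuron markers made up 0.0267% and 0.397%. In bulk samples, fewer cells of a type and less RNA per cell cannot be told apart.

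Regulation of the exchange includes miR-9-3p, known as miR-9* in older work, and miR-124, which act on the 3′ UTR of Actl6a in neurons. The mature sequence of the first is shown because its seed, bases 2 to 8, has a match in 2 of the 10 members. The RNA is shown 5′ to 3′ with the seed in capitals, from RefSeq (GRCm38.p6).
mmu-miR-9-3p: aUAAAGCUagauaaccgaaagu

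The letters complementary to the seed, AGCTTTA, were searched on the transcribed strand of the 3′ UTR of the longest coding transcript of each gene in GENCODE M21 (GRCm38). They were found in 1 progenitor member, Actl6a, and 1 neuronal member, Smarca2, and in 10.2% of the 20383 genes with a 3′ UTR. Both stretches lie in the 3′ UTR on the plus strand, with the 7 letters in capitals. A match is a description of the letters and not a shown site.
Actl6a, chr3:32726628-32726657: ctcaacgtctgtAGCTTTAgtacactcagg
Smarca2, chr19:26777490-26777519: tcatctagaactAGCTTTAgggtagtgcca

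Promoters are shown for 1 progenitor and 2 neuronal members whose first 120 bases upstream of the RefSeq start lie outside the annotated gene. GC boxes (GGGCGG) and CCAAT boxes (CCAAT), searched on both strands, are in capitals, and no GC box overlaps a CCAAT box in the sequences shown. Ss18 was left out of the promoter counts. Of the other 9 members, 7 held a GC box within 250 bases and 4 held a CCAAT box, against 32.7% and 33.8% of all 32851 promoters. The CCAAT box was found upstream of Actl6b, Dpf1, Dpf3 and Dpf2. The number of CG pairs in 250 bases ran from 15 for Actl6b to 51 for Phf10, and the median of all promoters was 6.
Actl6a, chr3:32708426-32708545, plus strand: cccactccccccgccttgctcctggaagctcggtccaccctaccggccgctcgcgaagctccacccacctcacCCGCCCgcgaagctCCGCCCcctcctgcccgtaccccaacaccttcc
Ss18l1, chr2:180042363-180042482, plus strand: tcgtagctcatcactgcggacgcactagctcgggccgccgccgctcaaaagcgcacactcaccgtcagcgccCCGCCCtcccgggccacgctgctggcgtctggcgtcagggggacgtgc
Dpf3, chr12:83487737-83487856, minus strand: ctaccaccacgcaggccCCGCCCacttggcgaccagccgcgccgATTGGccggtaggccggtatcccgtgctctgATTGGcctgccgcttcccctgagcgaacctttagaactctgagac

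In the ratio of p8 over stage table, 4 of the 5 neuronal subunit genes lay among the lowest 5.6% of genes, while 4 of the 5 progenitor subunit genes lay within the middle 50%. Actl6b, Dpf1, Dpf3 and Ss18l1 had, as deposited, 38.9, 44.4, 18 and 12.3 times their p8 pooled mean in the stage table. Smarca2, grouped with the neuronal subunits, and Phf10 and Ss18 of the progenitor set differed by 1.71, 1.58 and 1.14 times. The tables were scaled separately, so each ratio was also set against the median of the 13951 genes with a pooled mean of at least 10 in both, whose log2 ratio of p8 over stage was -0.78 as deposited. Relative to that median, 1 of the 5 neuronal members (Smarca2, at 0.00) and 2 of the 5 progenitor members lay above 0, and under other centrings the number of members above 0 ran from 1 to 8 of 10. The medians of the 5 were -3.39 and -0.41, beside 0 for all genes by construction, with a middle 50% of genes between -0.91 and 0.63.

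**Figure D1:**
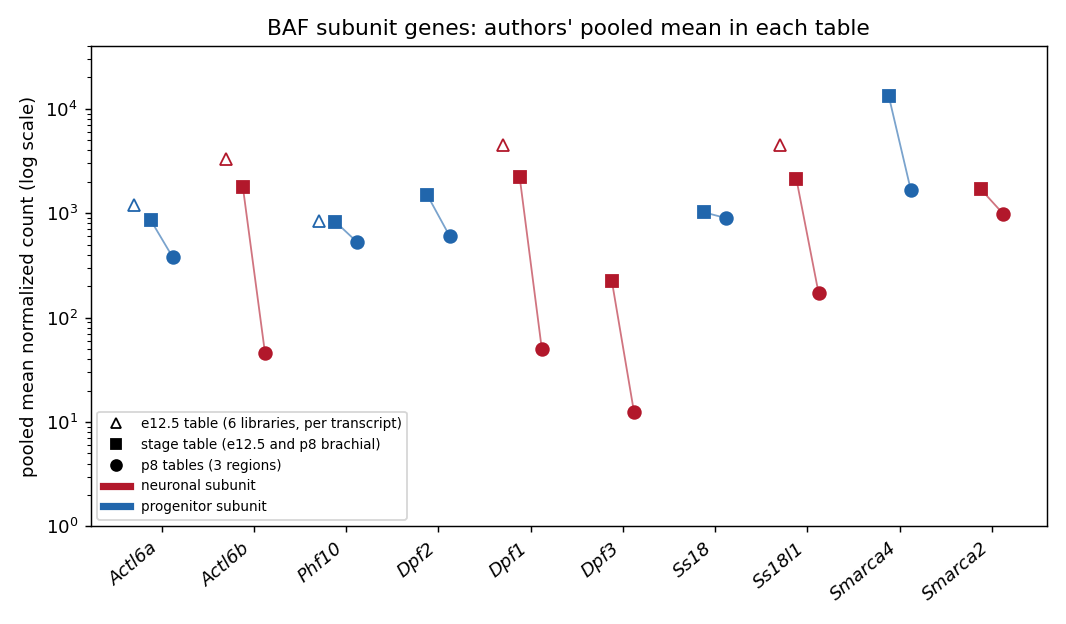
Pooled mean normalized count (vertical axis, log scale) of the 10 BAF subunit genes in the e12.5 table (open triangles, for the 5 genes with 1 listed transcript), the stage table (squares) and the p8 tables (circles), with neuronal subunits in red and progenitor subunits in blue. Each point is 1 pooled mean without a spread, and the red lines of Actl6b, Dpf1, Dpf3 and Ss18l1 drop furthest, to 45.8, 50.3, 12.4 and 173 in the p8 tables.

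The actin-related subunits Actl6a and Actl6b exchange for each other 1 to 1. Actl6b, which neurons need for dendrite growth, lies on chromosome 5 from 137553361 to 137569582 and had a pooled mean of 3332 in the e12.5 table, 1783 in the stage table and 45.8 in the p8 tables. Its log2 ratio of p8 over stage was -4.51 relative to the median gene, lower than that of all but 1.62% of genes. The p8 value stands for at least 67 and at most 1130 reads, and the 95% half-width of the log2 ratio from counting alone, taken at the fewest reads, was 0.36. These half-widths do not cover the spread between libraries, which is unknown.

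Actl6a is the paralog of dividing progenitors, on chromosome 3 from 32708546 to 32726973. It had 1192 in the e12.5 table, 862 in the stage table and 378 in the p8 tables, with a relative log2 ratio of -0.41 (half-width 0.16, percentile 36.5). Per kilobase of exon, Actl6b stood at 2.54 times Actl6a in the e12.5 table and 1.88 times in the stage table. In the p8 tables Actl6a stood at 9.07 times Actl6b. The share of Actl6b in the sum of both was 71.8%, 65.3% and 9.93%. With the length of the longest transcript, the log2 ratio of Actl6b over Actl6a was 0.42 in the stage table, in place of 0.91. In the p8 tables it was -3.67, in place of -3.18.

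The PHD finger subunits read histone tails, and the progenitor paralogs Phf10 and Dpf2 give way to Dpf1 and Dpf3. Dpf1, on chromosome 7 from 29303952 to 29317592, had 4525 in the e12.5 table, 2235 in the stage table and 50.3 in the p8 tables. Its relative log2 ratio of p8 over stage, -4.70 (half-width 0.34), was the lowest of the members, at percentile 1.44. Dpf3 is also known from heart and skeletal muscle, and it was the weakest member, with 223 in the stage table and 12.4 in the p8 tables. That p8 mean stands for 18 to 306 reads, and the relative log2 ratio was -3.39 with a half-width of 0.70.

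Phf10, whose loss stalls the division of progenitors, had 836 in the e12.5 table, 832 in the stage table and 527 in the p8 tables, a relative log2 ratio of 0.12 (half-width 0.15). It shares genomic sequence with another annotated gene, 1600012H06Rik, and whether reads were counted by strand is not given in the sources used here. Dpf2, which most tissues express, had 1486 in the stage table and 607 in the p8 tables (relative log2 ratio -0.52, half-width 0.13). Per kilobase, the sum of Dpf1 and Dpf3 made up 54.1% of the 4 PHD finger genes in the stage table and 5.78% in the p8 tables. The log2 ratio of Dpf1 and Dpf3 over Phf10 and Dpf2 in the stage table was 0.24, and 0.08 without division by length. Dpf1 alone stood at 4.95 times Phf10 in the e12.5 table, while Phf10 stood at 11.4 times Dpf1 in the p8 tables.

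Ss18 and Ss18l1 are the coactivator subunits of the complex. Ss18l1, which couples calcium signals to dendrite growth, lies on chromosome 2 from 180042483 to 180070201 and had 4456 in the e12.5 table, 2122 in the stage table and 173 in the p8 tables. The relative log2 ratio was -2.84 (half-width 0.19, percentile 5.6). Ss18 had 1020 in the stage table and 896 in the p8 tables, and its relative log2 ratio of 0.59 (half-width 0.13, percentile 73.6) was the highest of the members. Ss18l1 made up 81.9% of the pair per kilobase in the stage table and 29.5% in the p8 tables. With the length of the longest transcript the log2 ratio of Ss18l1 over Ss18 was 0.99 and -2.44, in place of 2.17 and -1.26.

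Of the ATPases, Smarca4 had the larger share in both the stage and the p8 tables. Smarca4 hydrolyses ATP in most BAF complexes of the embryo and was the most abundant member, with 13375 in the stage table and 1668 in the p8 tables, a relative log2 ratio of -2.23 (half-width 0.06, percentile 8.95). Smarca2 had 1693 and 989, a relative log2 ratio of 0.00 (half-width 0.11). Per kilobase, Smarca4 stood at 17.4 times Smarca2 in the stage table and 3.72 times in the p8 tables, so that the share of Smarca2 was 5.43% and 21.2%. With the length of the longest transcript the log2 ratio of Smarca2 over Smarca4 was -2.88 in the stage table and -0.65 in the p8 tables, in place of -4.12 and -1.89.

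A factor common to all libraries of a table cancels in a ratio between paralogs, but the size factors of single libraries do not, since they weight libraries of different stages or regions. Of the 4 sets of paralogs, the ratio of neuronal to progenitor subunit was higher in the p8 tables than in the stage table for 1, the ATPases, where the log2 ratio went from -4.12 to -1.89. It was lower for the other 3, with differences of -4.10 for the actin-related, -4.26 for the PHD finger and -3.43 for the Ss18 subunits on the log2 scale. Gene length cancels in the differences of single pairs.

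**Figure D2:**
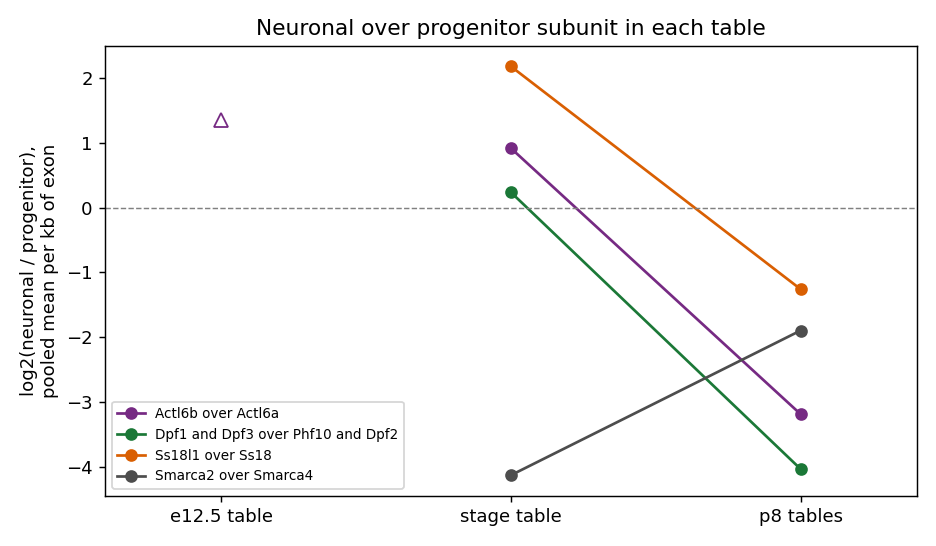
Log2 ratio of the neuronal over the progenitor subunit (vertical axis, pooled means per kilobase of exon) in the e12.5 table, the stage table and the p8 tables, with a line for each set of paralogs and an open triangle for Actl6b over Actl6a in the e12.5 table. The lines of 3 sets go down toward p8 and that of Smarca2 over Smarca4 goes up, from -4.12 to -1.89.

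The members were then ordered by level within each table. Levels were pooled means per kilobase of exon, scaled to sum to 1000000 over all genes with a known length. Smarca4 was first in the stage table with a level of 390, followed by Ss18l1 (92.1), Actl6b (78.8) and Dpf1 (78.4). Dpf2, Actl6a, Phf10, Smarca2 and Ss18 lay between 43.1 and 20.4, and Dpf3 was last with 9.97. In the p8 tables Smarca4 was again first with 59.3. Then came Phf10 (24.7), Actl6a (22.4), Ss18 (21.9) and Dpf2 (21.5), all progenitor subunits, then Smarca2, and the last 4 were Ss18l1 (9.16), Actl6b (2.47), Dpf1 (2.16) and Dpf3 (0.677). With the length of the longest transcript, Ss18l1 (68.5) came after Dpf1 (98.5) and Actl6b (80.7) in the stage table, and Phf10 (22.5) came after Ss18 (35.9), Actl6a (31.3), Dpf2 (30.5) and Smarca2 (27.8) in the p8 tables. Without a spread over samples it cannot be said which neighbours in these orders differ.

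The e12.5 table holds no p8 sample, but it counts transcripts and not genes. Of genes with a pooled mean of at least 100 in the stage table, 31.6% of 4167 genes with more than 1 listed transcript had a summed mean under 1 in it, against 1.88% of 7284 genes with 1. Ss18, Dpf3 and Smarca4, with 4, 3 and 3 listed transcripts, had highest means of 0, 0 and 2.68 there, and Dpf2, with 2, had 10.9, so these values are not levels of the genes. Smarca2, with 3 listed, had 1084. For the 5 members with 1 transcript the e12.5 and p8 means were set side by side, relative to the median of 8029 genes with 1 transcript. The log2 ratios of p8 over e12.5 were -5.24 for Dpf1, -4.93 for Actl6b, -3.44 for Ss18l1, -0.40 for Actl6a and 0.59 for Phf10. As deposited, the e12.5 means of Dpf1, Actl6b and Ss18l1 were 89.9, 72.8 and 25.8 times those at p8, and those of Actl6a and Phf10 were 3.15 and 1.59 times. Beside them, 3 neuron markers with 1 transcript had a median of -4.88 and 3 oligodendrocyte markers one of 7.61, with Opalin at 0 in the e12.5 table.

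Subunits that BAF complexes share, and paralogs outside the exchange, form a list of 21 core genes. Relative to the median gene, 16 lay below 0 and 5 above, with a median log2 ratio of p8 over stage of -1.44. The lowest were the zinc finger subunits of neurons and lymphocytes Bcl11a (-4.87, from 1791 to 35.8) and Bcl11b (-4.70, from 734 to 16.4). The highest were Actb, cytoplasmic actin (0.50, from 65870 to 54542), and Bcl7c (0.41, from 324 to 252). Among 8 regulators, Rest, the repressor of neuronal genes outside neurons, had 339 in the stage table and 267 in the p8 tables (relative log2 ratio 0.43), and its partner Rcor1 had 470 and 261 (-0.07). The 6 entries of miR-9 and miR-124 precursors had pooled means of at most 18 in the stage table, and 4 of them were at 0 in the p8 tables. These counts are of precursor entries and do not give the level of the mature miRNAs.

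Cell type markers were set beside these ratios. All 9 neuron markers lay below the median gene, between -5.29 for Tubb3 and -1.77 for Elavl3 with a median of -3.68, so the 4 low neuronal BAF members (-4.70 to -2.84) lay within their range. Set against the median of these markers, Actl6b (-0.82) and Dpf1 (-1.01) lay below 0 and the other 8 members above. Of 8 MN markers, 7 lay below 0 (median -3.99, from -10.94 for Mnx1 to 0.42 for Slc5a7). All 10 oligodendrocyte markers lay above 0 (1.29 to 1.99, median 1.63), as did all 4 of oligodendrocyte precursors (1.42 to 2.03), all 6 of microglia (1.16 to 2.21) and all 4 of endothelium (0.79 to 1.72). Rises in this ratio are limited in size, because the p8 brachial samples also enter the stage table, while falls have no such limit. Of 5 astrocyte markers 4 lay above 0, and Slc1a2 was at -3.20. Of 7 genes of cycling cells and progenitors 2 lay above 0, with a median of -0.59. The 7 genes ran from -5.47 for Pax6 to 1.83 for Olig2. The ratio of Olig2 lay inside the range of the oligodendrocyte markers, and which cells gave its reads was not tested. The 5 interneuron markers with reads in both tables had a median of -6.82. For 1000 normalized counts of the 9 neuron markers together, there were 20.1 of Actl6b in the stage table and 9.56 in the p8 tables. Elavl3 alone gave 11299 of the 88776 summed counts of these markers in the stage table and 1932 of 4789 in the p8 tables. A value without Elavl3 was not computed. The measure per 1000 counts was computed for Actl6b alone. Of the other low neuronal members, Dpf1 lay below the median of these markers while Dpf3 (0.29) and Ss18l1 (0.84) lay above. The part of these cells in the ratios of the BAF genes was not tested.

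**Figure D3:**
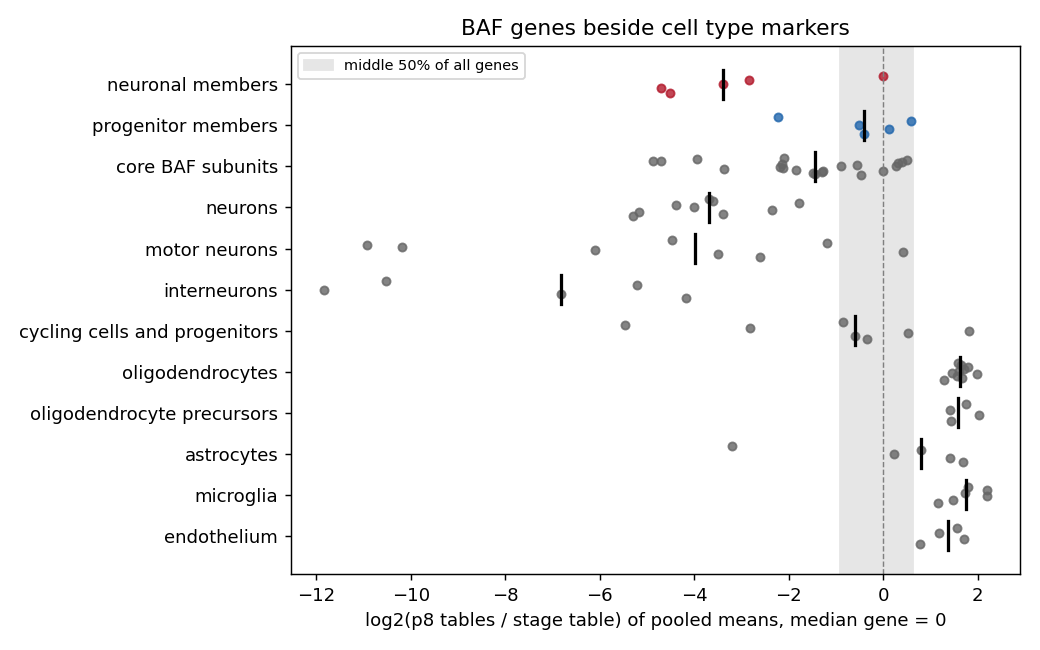
Log2 ratio of pooled means, p8 tables over stage table, relative to the median gene (horizontal axis), for BAF genes and cell type markers, with each point a gene, a black line at the median of every list and the grey band the middle 50% of all genes. The neuronal members other than Smarca2 lie between -4.70 and -2.84, inside the range of the neuron markers, and the oligodendrocyte markers all lie above 1.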

How the data were processed

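The authors aligned unique reads to GRCm38 (mm10) with HISAT, printed as HISET2 in the methods, and used featureCounts for counting and DESeq2 for the comparisons, all run on Galaxy. Versions, annotation release and a filter on low counts are not given in the sources used here. The signal used here, the Base mean column that the authors deposited in each table, is the mean normalized count over all samples of a comparison. Columns of fold change, standard error, Wald statistic and p-values hold the authors' own comparisons and were not used.

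From the pooled means were computed levels per kilobase of exon (all exons of GENCODE M21 together). These levels were scaled to sum to 1000000 over all genes with a known length. Ratios between paralogs were also computed, and log2 ratios of the p8 over the stage table relative to the median gene with at least 10 in both. Genes were matched by Entrez or RefSeq identifier (GRCm38.p6), and 93.0% of genes and 99.2% of transcripts had a symbol. A gene of the e12.5 table was given by its transcript with the highest mean. A value that at least 10 genes shared and that was no sum or multiple of smaller ones (tolerance 2e-07) was taken as 1 read of a library, and the size factor as 1 over that value times the number of libraries. The fewest and most reads behind a mean were the mean over the largest and the smallest such value. Half-widths of 95% are Poisson at the fewest reads.

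Samples were grouped by their titles. Named genes are the 10 members, with up to 6 genes of the BAF lists (the 2 lowest and 2 highest core subunits, Rest and Rcor1). The members and lists were chosen with earlier results of these data known, and cell type markers named in the text were chosen after their values were seen. Steps were tested on simulated data. Other lengths, centrings, filters and sums of transcripts were tried. Python 3.11.15, numpy 2.4.6, pandas 2.3.3 and matplotlib 3.10.9 were used.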

Additional observations from a re-analysis of the deposited data

How the results depend on the processing

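The number of members above the median gene, 3 of 10, was 3 and 2 with the median taken over genes with any reads and over genes of at least 100 in both tables. It was 1 by the share of summed means, 5 when centred on the median of the core BAF subunits, and 8 when centred on that of the neuron markers, a choice added after seeing the data. Actl6b and Dpf1 stayed below 0 under all of them, Ss18 stayed above, and Dpf3, Ss18l1 and Smarca4 changed sign only when centred on the neuron markers, to 0.29, 0.84 and 1.46. The number of sets of paralogs with a higher neuronal ratio at p8, 1 of 4, was 1 of 7 with each PHD finger paralog on its own. Against the e12.5 table it was 0 of the 3 sets with reads there, by the highest transcript of each gene. Smarca4 is at 2.68, Dpf2 at 10.9 and Dpf3 at 0 in it, which are not levels of the genes. The number was 0 of the 2 pairs with 1 transcript each, a choice also added after seeing the data. These were Actl6b over Actl6a and Dpf1 over Phf10, so the ATPases did not enter. Ratios between the 4 sets of paralogs kept their sign in the stage and p8 tables with the longest transcript or no length, which were not tried for the e12.5 table. The smallest, that of the PHD finger subunits in the stage table, was 0.24, and 0.08 with no length. Actl6b over Actl6a, 0.91 in the stage table, lay between 0.42 and 1.05 with these choices. In the p8 tables it went from -3.18 to between -3.67 and -3.05. Ss18l1 over Ss18 went from 2.17 to between 0.99 and 1.06 in the stage table and from -1.26 to between -2.44 and -2.37 in the p8 tables. Smarca2 over Smarca4 went from -4.12 to between -2.98 and -2.88 and from -1.89 to between -0.75 and -0.65. No paired analysis was possible because the tables hold no value per sample, and for that reason replicates could not be left out.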
